A study of Homo sapiens with 6 samples.

Results

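Collagen genes were compared between VM iAst and Control iAst, astrocytes that the labels assign a ventral midbrain and a control (forebrain) regional character. The members are all annotated genes whose symbol is COL, a number, A and a number. There were 44 of them, of which 42 were among the 27439 genes with reads and 36 among the 15984 genes that passed the filter on low counts and were tested. By the rule they fall into 11 fibrillar genes (types I, II, III, V, XI, XXIV and XXVII), 6 basement membrane genes (type IV) and 27 others. Both groups came from H1, an established human embryonic stem cell line, so the comparison covers 1 line. Each group had 3 libraries, numbered 2, 3 and 4, of polyadenylated RNA read at the 3' end. The labels do not say whether libraries came from separate cultures, so a p-value here covers the spread among these 6 libraries, which may be technical. They give no treatment that set the regional character.

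Collagens are secreted or membrane proteins in which 3 chains wind into a triple helix. Fibrillar chains assemble into the banded fibrils of connective tissue, and type IV chains form the sheet-like network of basement membranes. Beaded filament, fibril-associated, network, transmembrane and multiplexin collagens link or border these structures. In the brain, collagen is concentrated in the meninges and in the basement membrane of vessels and the pial surface, which astrocyte endfeet contact.

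The libraries held 15391082, 12477947 and 13506682 estimated reads in VM iAst replicates 2, 3 and 4, and 14574520, 11617935 and 14211353 in Control iAst. Levels are in CPM, reads scaled to a common library size, and a 3' end read does not scale with transcript length. GFAP, the astrocyte intermediate filament gene, was at 320, 175 and 618 CPM in VM iAst and 267, 360 and 459 CPM in Control iAst. Of 12 tested astrocyte markers 4 rose (MLC1, SLC1A3, NFIA and AQP4), where 1.06% of all tested genes rose. With the replicate block 4 were higher and 3 lower (SOX9, GJA1 and CD44), against 3.63% and 4.5% of all tested genes. Some defining markers were near 0. ALDH1L1, a folate enzyme gene, was at 0.378 to 2.05 CPM and SLC1A2, a glutamate transporter gene, at 0.780 to 3.40 CPM over the 6 libraries. POU5F1, which defines pluripotent cells, had at most 4 reads in a library. The 6 pluripotency markers summed to 100.4 to 173 CPM in VM iAst and 53.3 to 78.7 CPM in Control iAst, of which 88.7% was PODXL, which many other cells express and which rose (edgeR adjusted p = 0.047, or 0.10 under the replicate block). The sums without PODXL overlapped.

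Fibrillar collagen reads were lower in VM iAst and type IV reads higher, while the sum over all 44 genes overlapped, averaging 7854 ± 1569 CPM in VM iAst and 7871 ± 1797 CPM in Control iAst (SD, n = 3). Fibrillar genes summed to 722, 752 and 763 CPM in VM iAst and 1924, 1254 and 1795 CPM in Control iAst. Type IV genes summed to 605, 736 and 624 CPM in VM iAst and 518, 481 and 425 CPM in Control iAst. In neither class did the groups overlap. COL1A1 carried much of the fibrillar difference. Without it, a set chosen after the values were seen, fibrillar genes summed to 438, 517 and 451 CPM in VM iAst. In Control iAst they then summed to 941, 583 and 718 CPM, still without overlap. The ratio of the Control iAst mean to the VM iAst mean was 1.59 without COL1A1 and 2.22 with it. Collagen genes outside both classes summed to 6833, 4667 and 7861 CPM in VM iAst and 7028, 4191 and 5998 CPM in Control iAst, and these groups overlapped. Type VI genes and COL14A1 carry that sum. The 21 genes left without them, a set chosen after the values were seen, summed to 296, 278 and 285 CPM in VM iAst and 497, 475 and 604 CPM in Control iAst, lower in VM iAst without overlap. Type IV reads per fibrillar read were 0.838, 0.978 and 0.818 in VM iAst, against 0.269, 0.384 and 0.237 in Control iAst. Collagen genes together took 0.636% to 0.966% of the reads in VM iAst and 0.602% to 0.898% in Control iAst. These sums are descriptions with no test, and they weigh genes by their reads.

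**Figure D1:**
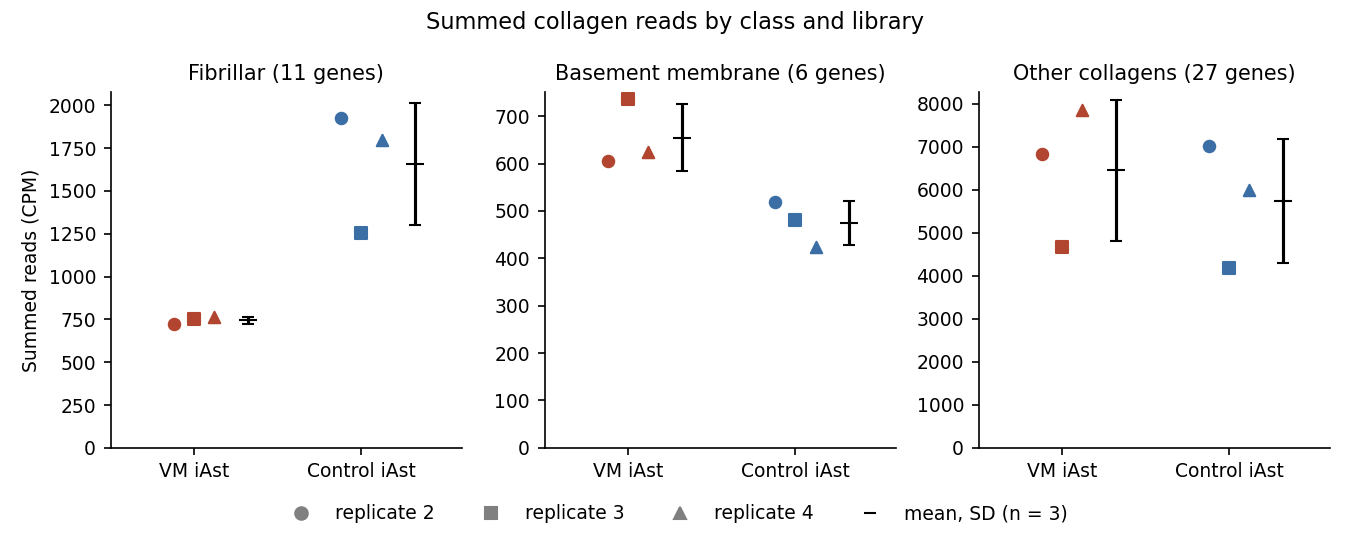
Summed reads (CPM, vertical axis from 0) of the 11 fibrillar, 6 basement membrane and 27 other collagen genes in each library, with VM iAst left of Control iAst. Points are libraries, with symbols for replicate numbers, and bars show the mean and SD (n = 3). The VM iAst libraries lie below all Control iAst libraries for the fibrillar sum (722 to 763 against 1254 to 1924) and above them for type IV.

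Of the 36 tested collagen genes, 1 rose, 3 fell and 32 did not pass edgeR's quasi-likelihood test at an adjusted p under 0.05. The gene that rose was COL27A1 and those that fell were COL1A1, COL3A1 and COL9A3. Over all tested genes 2.15% passed (1.06% higher and 1.09% lower), against 11.1% of the tested collagens. The median log2 fold change was -0.32 over the tested collagens and 0.01 over all tested genes. It was -0.56 over 11 fibrillar genes, 0.41 over 4 type IV genes and -0.38 over 21 others. Libraries of the groups did not overlap for 17 of the 36 (47.2%), which held for 17.9% of all tested genes. With the replicate number as a block, 4 collagens were higher and 11 lower, while 8.13% of all genes passed (3.63% higher and 4.5% lower). All 4 calls of the unblocked test were among these 15. DESeq2 called 10 collagens and limma voom 4, where 4.67% and 2.1% of all genes passed. The voom calls held COL12A1 in place of COL3A1. At an unadjusted p under 0.05, edgeR gave 18 collagens and 12% of all genes.

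**Figure D2:**
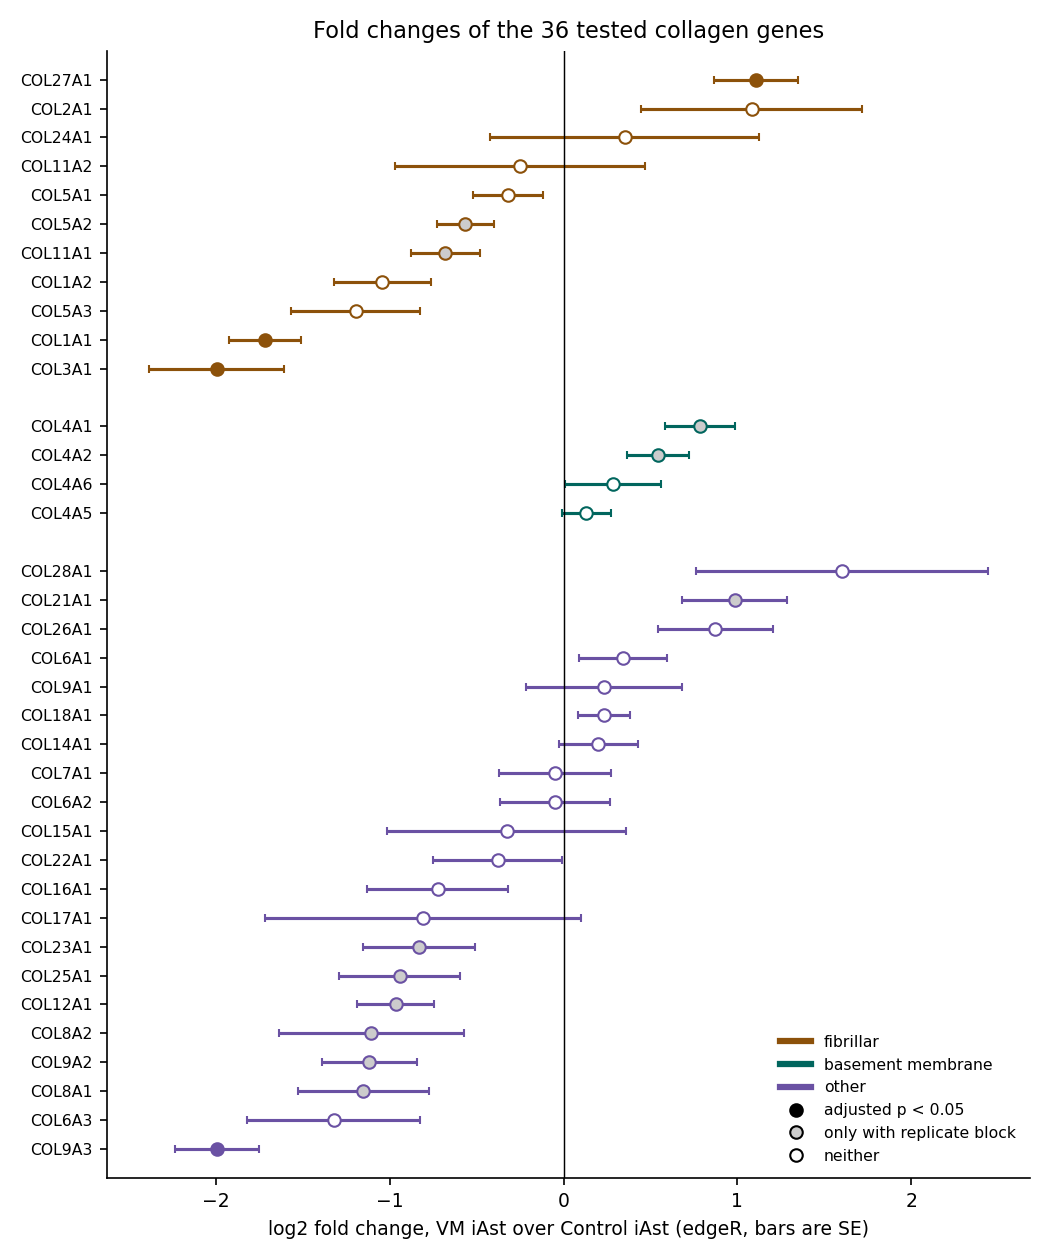
log2 fold change of VM iAst over Control iAst (horizontal axis) for the 36 tested collagen genes, grouped as fibrillar, basement membrane and other, with bars for the SE of edgeR's fit. Filled points passed the test, grey points passed with the replicate block alone, and open points passed neither. All 4 type IV genes lie right of 0, and 8 of the 11 fibrillar genes lie left of it.

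The major fibrillar chains were lower in VM iAst. COL1A1, the first chain of type I collagen and the main chain of tendon, bone and dermis (chromosome 17, 50183289 to 50201632, GRCh38), was at 284, 235 and 311 CPM in VM iAst and 983, 671 and 1077 CPM in Control iAst. Every VM iAst library was below every Control iAst library. Its log2 fold change was -1.72 ± 0.21 (SE; edgeR adjusted p = 0.0037), and the call held with each library left out. COL1A2, the partner chain, was at 151, 158 and 112 CPM in VM iAst and 414, 187 and 267 CPM in Control iAst. The groups did not overlap, but it did not pass (log2 fold change -1.04 ± 0.28; edgeR adjusted p = 0.11). DESeq2 called it (adjusted p = 0.0048), as did edgeR without Control iAst replicate 3 (adjusted p = 0.028). COL3A1, the chain of type III collagen of vessel walls and soft tissue (chromosome 2, 188974320 to 189012746), was at 11, 9.80 and 8.31 CPM in VM iAst and 62.5, 19.6 and 34.0 CPM in Control iAst. The Control iAst libraries were spread widely and still lay above every VM iAst library. It fell by 1.996 on the log2 scale (edgeR adjusted p = 0.038), a call that leaving out any VM iAst library or Control iAst replicate 4 ended (highest adjusted p = 0.15), as did voom (adjusted p = 0.12).

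Of the type V and XI chains, which set fibril diameter inside type I and type II fibrils, none passed the unblocked test. COL5A2 was at 46.6, 48.6 and 50.3 CPM in VM iAst and 79.8, 57.9 and 77.4 CPM in Control iAst, without overlap (edgeR adjusted p = 0.14, or 0.023 under the replicate block). COL11A1 was at 105, 169 and 112 CPM in VM iAst and 231, 196 and 193 CPM in Control iAst, also without overlap (edgeR adjusted p = 0.14, or 0.015 under the replicate block). DESeq2 called COL11A1 (adjusted p = 0.037) and not COL5A2 (adjusted p = 0.074). COL5A3 was at 2.08, 2.74 and 2.36 CPM in VM iAst and 4.90, 6.07 and 5.52 CPM in Control iAst (edgeR adjusted p = 0.17). COL5A1 was at 84.2, 72.9 and 112 CPM in VM iAst and 133, 91.1 and 111 CPM in Control iAst, with overlap (edgeR adjusted p = 0.61). COL2A1, the cartilage chain, COL11A2 and COL24A1 stayed at or under 7.06, 2.34 and 1.22 CPM in every library and did not pass.

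COL27A1 moved the other way. It encodes a long fibrillar chain known from cartilage (chromosome 9, 114155560 to 114312511), and was at 33.1, 46.4 and 49.5 CPM in VM iAst and 14.3, 20.8 and 24.7 CPM in Control iAst. It rose by 1.11 ± 0.24 on the log2 scale (SE; edgeR adjusted p = 0.044) and was higher in VM iAst in each of the 3 same-numbered pairs. Leaving out any 1 library ended the call (adjusted p 0.053 to 0.15), and with the replicate block it was 0.00040. Of its reads, 66.5% lay on the full-length coding transcript and nearly all others on noncoding ones. Counting coding transcripts alone gave a log2 fold change of 0.96 (edgeR adjusted p = 0.11).

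Some markers of mesenchymal cells fell beside the fibrillar genes. Of 16 tested fibroblast and mesenchymal markers 4 fell and none rose, namely LOX, PDGFRA, PRRX1 and FOXC1 (edgeR adjusted p = 0.0037 to 0.0095). Of all tested genes 1.09% fell. With the replicate block 6 were lower and 1 higher, against 4.5% and 3.63% of all tested genes. The higher one was POSTN, at 147, 91.6 and 132 CPM in VM iAst and 80.0, 52.4 and 64.8 CPM in Control iAst (edgeR adjusted p = 0.060, or 0.00030 under the replicate block). FOXC1, a factor of meningeal and other mesenchyme, averaged 20.1 ± 8.45 CPM in VM iAst and 91.1 ± 20.8 CPM in Control iAst (SD, n = 3). Of 12 meningeal and choroid plexus markers 4 were tested and FOXC1 alone fell, with 3 lower under the block, and TTR and SLC22A6 had no read. All 4 tested had negative fold changes. PTGDS made up 74.9% of that list's sum, which overlapped between groups. Without PTGDS the list summed to 21.4 to 32.6 CPM in VM iAst and 93.5 to 132.5 CPM in Control iAst, without overlap, with FOXC1 the largest part. The fibroblast and mesenchymal list summed to 4579 to 5728 CPM in VM iAst and 3941 to 4795 CPM in Control iAst, of which 85.0% was VIM, which astrocytes express as well. Without VIM it summed to 503 to 767 CPM in VM iAst and 677 to 925 CPM in Control iAst, with overlap. DCN and LUM, proteoglycans that define fibroblasts, were at no more than 2.67 and 3.69 CPM in any library and higher on average in VM iAst. THY1 was at 248, 204 and 334 CPM in VM iAst and 256, 218 and 310 CPM in Control iAst. Of 11 tested pericyte and smooth muscle markers and 7 tested chondrocyte markers, none passed. With the replicate block, 2 pericyte markers were higher and 1 lower, and 2 chondrocyte markers lower. The part of these cell types in the collagen differences was not tested, and fewer cells of a type cannot be told apart from less RNA per cell in bulk samples.

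The 2 chains of the common type IV network stood higher in VM iAst. COL4A1 (chromosome 13, 110148963 to 110307233) was at 125, 178 and 119 CPM in VM iAst and 98.8, 76.4 and 69.7 CPM in Control iAst. COL4A2 (chromosome 13, 110305812 to 110513209) was at 298, 351 and 296 CPM in VM iAst and 254, 224 and 170 CPM in Control iAst. For both genes every VM iAst library was above every Control iAst library. Their log2 fold changes were 0.78 ± 0.20 and 0.55 ± 0.18 (SE), with edgeR adjusted p = 0.081 and 0.20, so neither passed the unblocked test. Under the replicate block those p-values were 0.0067 and 0.014. DESeq2 called COL4A1 (adjusted p = 0.017) and not COL4A2 (adjusted p = 0.11).

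COL4A1 and COL4A2 lie head to head, and RefSeq places their starts 127 bases apart on opposite strands. The promoter windows, 250 bases before to 50 after each start, therefore share 226 bases. They are shown because both genes differed in 1 direction, beside that of COL27A1, which rose. Capitals mark the CCAAT box, the GC box letters GGGCGG, or the TATA box letters TATAAA. Each was searched on both strands, so a match on the other strand appears as its reverse complement. The windows are chr13:110307108-110307407 on the minus strand for COL4A1, chr13:110307034-110307333 on the plus strand for COL4A2 and chr9:114155287-114155586 on the plus strand for COL27A1 (GRCh38.p14).
COL4A1: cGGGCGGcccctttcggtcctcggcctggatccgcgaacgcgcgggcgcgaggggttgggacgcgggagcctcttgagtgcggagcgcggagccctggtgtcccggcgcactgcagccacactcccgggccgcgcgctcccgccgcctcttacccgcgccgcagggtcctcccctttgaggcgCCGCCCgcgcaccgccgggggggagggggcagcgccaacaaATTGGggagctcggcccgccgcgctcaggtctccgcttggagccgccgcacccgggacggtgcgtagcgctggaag
COL4A2: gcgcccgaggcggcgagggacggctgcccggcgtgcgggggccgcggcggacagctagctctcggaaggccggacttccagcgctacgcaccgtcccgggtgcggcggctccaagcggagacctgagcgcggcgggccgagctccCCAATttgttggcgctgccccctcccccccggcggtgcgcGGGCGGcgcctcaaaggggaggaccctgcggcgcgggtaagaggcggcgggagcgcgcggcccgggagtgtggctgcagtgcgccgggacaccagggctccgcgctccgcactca
COL27A1: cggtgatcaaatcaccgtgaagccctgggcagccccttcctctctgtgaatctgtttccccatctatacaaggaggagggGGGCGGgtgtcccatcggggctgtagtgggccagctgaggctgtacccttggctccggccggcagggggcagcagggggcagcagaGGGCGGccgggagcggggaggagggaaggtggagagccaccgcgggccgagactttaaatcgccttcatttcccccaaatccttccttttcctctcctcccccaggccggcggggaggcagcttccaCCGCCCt
The COL4A1 window held 1 CCAAT and 2 GGGCGG matches and the COL4A2 window 1 of each. 1 CCAAT match and 1 GGGCGG match lie in the shared bases and are read on opposite strands from the 2 genes. The COL27A1 window held 3 GGGCGG matches and no CCAAT, and TATAAA was in none of these windows. Among 35116 RefSeq windows of this length, 34.6% held CCAAT, 45.0% GGGCGG and 11.5% TATAAA. The 3 windows were 76.7%, 77.7% and 65.7% G or C, against a median of 58.7% over all windows.

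The other type IV genes gave smaller differences. COL4A5 was at 142, 146 and 163 CPM in VM iAst and 140, 129 and 142 CPM in Control iAst (edgeR adjusted p = 0.82). Its fold change was negative with the gene-length offset and in the deposited normalized values. COL4A6, its head-to-head neighbour on chromosome X, was at 39.4, 60.8 and 45.4 CPM in VM iAst and 24.7, 52.6 and 42.4 CPM in Control iAst (edgeR adjusted p = 0.79). COL4A3 and COL4A4, chains of the kidney glomerulus, had at most 4 and 8 reads in a library and were not tested.

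None of the genes for basement membrane partners of type IV collagen rose. Of 13 tested partner genes 1 fell, and with the replicate block 3 were lower and none higher, where 1.09% and 4.5% of all tested genes were lower. The laminin chain genes LAMA4, LAMB1 and LAMC1 made up these 3. Fold changes were positive for 5 of the 13 and negative for 8. Their sum was lower in VM iAst without overlap, at 2343 to 2591 CPM against 2608 to 2916 CPM in Control iAst. Without SPARC, the most abundant, it was 1469 to 1624 CPM in VM iAst and 1662 to 1969 CPM in Control iAst, again without overlap. LAMA4 averaged 59.5 ± 3.39 CPM in VM iAst and 130 ± 10.7 CPM in Control iAst (SD, n = 3; edgeR adjusted p = 0.0037). LAMB1 averaged 162 and 277 CPM (edgeR adjusted p = 0.056) and LAMC1 373 and 565 CPM (edgeR adjusted p = 0.19) in VM iAst and Control iAst. PXDN, the peroxidase that crosslinks type IV collagen, averaged 605 and 484 CPM in VM iAst and Control iAst (edgeR adjusted p = 0.51). Endothelial cells, another source of type IV collagen, left few reads, and none of 6 tested markers passed. Their 10 markers summed to 15.4 to 21.2 CPM in VM iAst and 25.2 to 29.4 CPM in Control iAst, without overlap. Their part in the type IV values was not tested.

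**Figure D3:**
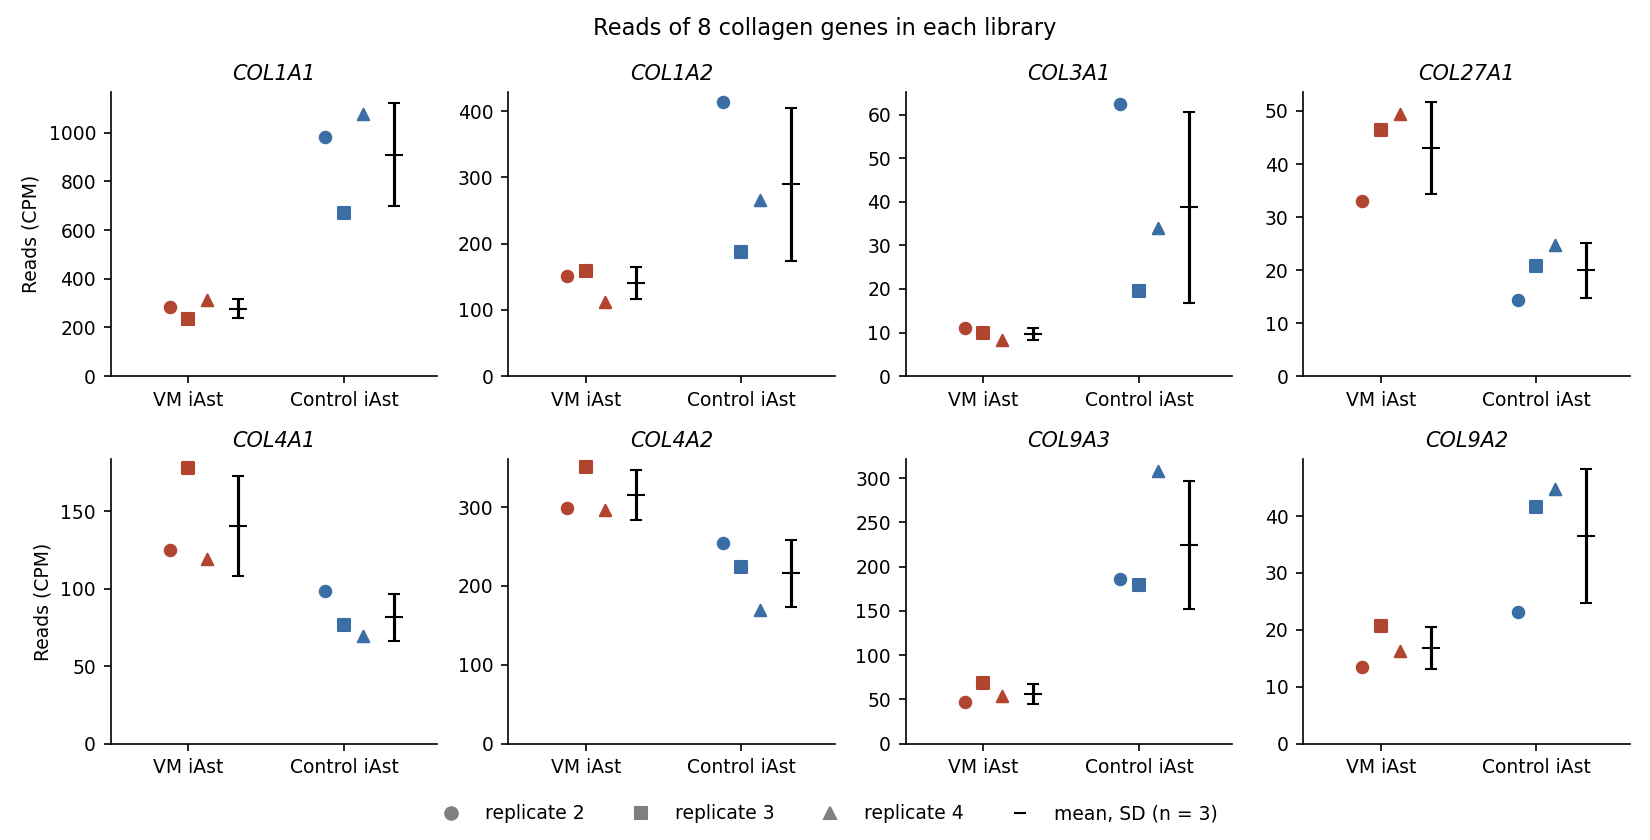
Reads (CPM, vertical axes from 0, each on its own scale) of 8 collagen genes in each library, with VM iAst left of Control iAst. Points are libraries and bars the mean and SD (n = 3). In all 8 genes the groups do not overlap, and COL27A1, COL4A1 and COL4A2 are the ones higher in VM iAst.

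Type IX collagen, a fibril-associated collagen that coats type II fibrils, held the single call outside the fibrillar class. COL9A3 (chromosome 20, 62816244 to 62841159) was at 46.9, 68.3 and 53.5 CPM in VM iAst and 186, 179 and 308 CPM in Control iAst. The groups lay far apart, with a log2 difference of -1.996 ± 0.24 (SE; edgeR adjusted p = 0.0037), and the call held with each library left out. Of its reads, 99.9% were assigned to a 993-base noncoding transcript that shares the 3' end of the coding one, so coding transcripts alone left too few reads to test. Its last 45 bases overlap TCFL5 on the other strand, and the sources used here do not state strand use in counting. TCFL5 was at 14.7, 12.2 and 13.7 CPM in VM iAst and 17.2, 10.9 and 8.70 CPM in Control iAst (edgeR adjusted p = 0.92). The part of TCFL5 reads in the COL9A3 values was not tested. Chondrocyte markers, from a tissue rich in type IX collagen, summed to 175 to 225 CPM in VM iAst and 270 to 298 CPM in Control iAst without overlap. SOX9, which is on the astrocyte list too, made up 91.1% of that sum, and the rest summed to 12.6 to 19.9 CPM in VM iAst and 24.2 to 34.6 CPM in Control iAst. Their part in the COL9A3 values was not tested.

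COL9A2, a partner chain, was at 13.5, 20.7 and 16.3 CPM in VM iAst and 23.1, 41.6 and 44.8 CPM in Control iAst, without overlap (log2 fold change -1.12 ± 0.27, edgeR adjusted p = 0.069, or 0.0016 under the replicate block). DESeq2 called COL9A2 (adjusted p = 0.0062). COL9A1, the remaining chain, was at 5.85, 5.17 and 2.58 CPM in VM iAst and 2.34, 4.62 and 4.61 CPM in Control iAst, with overlap (edgeR adjusted p = 0.92). The estimated fold changes of these chains were thus unlike. COL9A1 had at most 90 reads in a library, and the exact test of chain ratios could not pass with 3 against 3 libraries. Among the other fibril-associated genes COL12A1, which links fibrils under tension, was at 17.6, 11.3 and 16.3 CPM in VM iAst and 33.1, 29.6 and 25.6 CPM in Control iAst, without overlap (edgeR adjusted p = 0.055, or 0.0048 under the replicate block). DESeq2 and limma voom called COL12A1 (adjusted p = 0.0062 and 0.048). COL21A1 was at 21.2, 14 and 22 CPM in VM iAst and 13.9, 7.96 and 7.03 CPM in Control iAst, also without overlap but in the other direction (edgeR adjusted p = 0.16, or 0.016 under the replicate block).

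Type VI and type XIV collagens held most collagen reads and did not pass. COL6A1, a chain of the beaded filaments around cells (chromosome 21, 45981737 to 46005050), was at 4259, 2831 and 4953 CPM in VM iAst and 4061, 2381 and 3050 CPM in Control iAst (edgeR adjusted p = 0.69). COL6A2 was at 1065, 658 and 1346 CPM in VM iAst and 1282, 655 and 1235 CPM in Control iAst (edgeR adjusted p = 0.98). COL14A1, a fibril-associated chain, was at 1211, 895 and 1269 CPM in VM iAst and 1168, 673 and 1097 CPM in Control iAst (edgeR adjusted p = 0.83). Replicate 3 was the lowest library of its group for all 3 genes. Type VI genes made up 56.8% to 68.2% of collagen reads in VM iAst and 51.4% to 56.6% in Control iAst. On the deposited TPM scale, which divides by transcript length, COL6A1, COL6A2 and COL14A1 led too in VM iAst, at 1467, 197 and 119 TPM on average. In Control iAst, however, COL9A3 was second at 220 TPM, behind COL6A1 at 1075 TPM. For COL6A1 98.5% of reads were assigned to a 2358-base noncoding transcript with the coding 3' end, and TPM rises with such a short assigned length.

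COL6A2 reads ended at 2 annotated places, 46132849 and 46129808 on chromosome 21. The upstream end took 8.0%, 7.80% and 5.23% of its reads in VM iAst and 8.46%, 10.5% and 7.39% in Control iAst, with overlap. COL6A3, the long chain of the filament, was low, at 2.67, 4.47 and 8.24 CPM in VM iAst and 19.97, 6.50 and 11.9 CPM in Control iAst, with overlap (edgeR adjusted p = 0.30). COL6A5 had no read and COL6A6 at most 2.

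Ratios of partner chains were compared in 9 pairs over the libraries. With 3 against 3 libraries the smallest two-sided exact permutation p is 0.1, so no pair could pass. COL6A1 reads per COL6A2 read were 3.999, 4.30 and 3.68 in VM iAst and 3.17, 3.63 and 2.47 in Control iAst, without overlap (exact permutation p = 0.1, adjusted 0.22). COL9A3 reads per COL9A2 read were 3.47, 3.30 and 3.29 in VM iAst and 8.06, 4.30 and 6.88 in Control iAst, again without overlap (exact permutation p = 0.1, adjusted 0.22). The ratios COL9A3 to COL9A1 and COL6A3 to COL6A1 did not overlap either. COL1A1 reads per COL1A2 read were 1.88, 1.49 and 2.77 in VM iAst and 2.38, 3.58 and 4.04 in Control iAst, with overlap (exact permutation p = 0.2, adjusted 0.30). That ratio was lower in VM iAst in 3 of the 3 same-numbered pairs, which the permutation does not use. COL4A1 reads per COL4A2 read were 0.418, 0.506 and 0.403 in VM iAst and 0.389, 0.341 and 0.411 in Control iAst, which overlap too (exact permutation p = 0.2, adjusted 0.30), lower in VM iAst in 1 of 3 pairs. The log2 ratio differed by 0.22 between groups in that pair, somewhat above the SD within VM iAst (0.18) and within Control iAst (0.14).

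**Figure D4:**
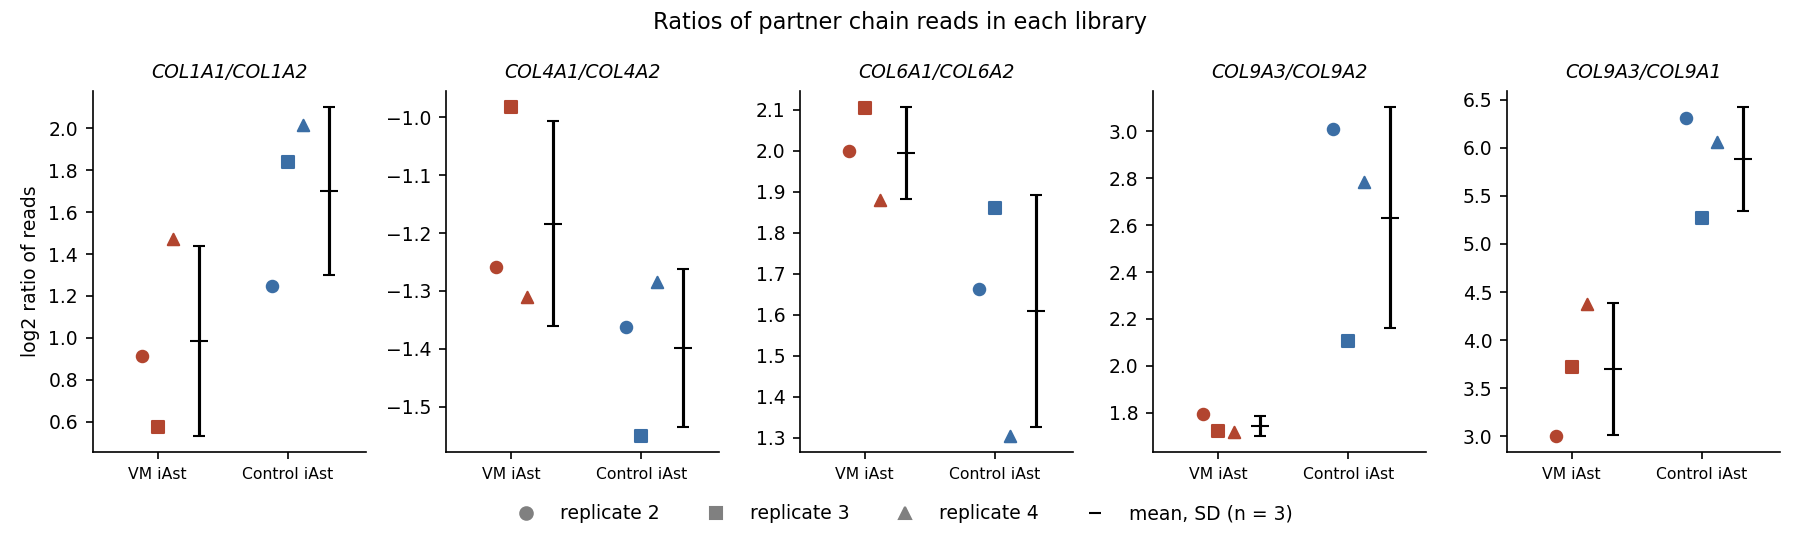
log2 ratio of the reads of 5 pairs of partner chains in each library (vertical axes, each on its own scale and not starting at 0), with VM iAst left of Control iAst. Points are libraries and bars the mean and SD (n = 3). The groups overlap for COL1A1/COL1A2 and COL4A1/COL4A2 and do not for the other pairs.

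The network collagens of type VIII, known from vessel walls and corneal endothelium, were lower with the block. COL8A1 was at 32.8, 9.96 and 22.5 CPM in VM iAst and 55.1, 44.0 and 46.2 CPM in Control iAst, without overlap (edgeR adjusted p = 0.24, or 0.0096 under the replicate block). DESeq2 called COL8A1 (adjusted p = 0.025). COL8A2 was at 7.61, 4.39 and 15 CPM in VM iAst and 15.2, 11.5 and 31.5 CPM in Control iAst, with overlap, yet lower in VM iAst in each same-numbered pair (edgeR adjusted p = 0.48, or 0.0035 under the replicate block). The transmembrane genes did not pass the unblocked test, and their groups overlapped. COL23A1 was at 7.67, 8.62 and 15.2 CPM in VM iAst and 14.7, 15.6 and 25.8 CPM in Control iAst (edgeR adjusted p = 0.30, or 0.017 under the replicate block). COL25A1, a neuronal membrane collagen found in amyloid plaques, was at 19.1, 6.98 and 12.2 CPM in VM iAst and 29.3, 26.5 and 17.9 CPM in Control iAst (edgeR adjusted p = 0.29, or 0.032 under the replicate block). Neuron markers summed to 713 to 1189 CPM in VM iAst and 1267 to 2003 CPM in Control iAst without overlap. None of 9 tested passed the unblocked test, and 4 were lower with the block (STMN2, DCX, NEFM and NEFL), against 4.5% of all tested genes. STMN2 made up 57.1% of the sum, and without it the groups overlapped, at 492 to 619 CPM in VM iAst and 547 to 628 CPM in Control iAst. The part of neurons in the COL25A1 values was not tested.

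COL18A1, a multiplexin of basement membranes and the source of endostatin, was at 77.7, 92.1 and 83.4 CPM in VM iAst and 73.5, 78.8 and 63.3 CPM in Control iAst (edgeR adjusted p = 0.63). SLC19A1, which overlaps it on the other strand, had at most 13.1 CPM in a library. COL7A1, the anchoring fibril chain of skin, was at 13.8, 11.9 and 9.24 CPM in VM iAst and 15.3, 14.1 and 6.73 CPM in Control iAst, with 94.9% of its reads on a short retained-intron transcript. COL22A1 was at 13.1, 7.84 and 6.37 CPM in VM iAst and 17.9, 7.96 and 9.68 CPM in Control iAst. COL15A1, COL16A1, COL17A1, COL26A1 and COL28A1 were tested and did not pass, with at most 7.15 CPM in any library. COL26A1 and COL28A1 were higher in VM iAst without overlap (edgeR adjusted p = 0.29 and 0.51). COL10A1 had no read, and COL13A1, COL19A1 and COL20A1 had at most 26, 7 and 2 reads, too few to test.

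None of the 24 genes that fold and modify collagen chains passed the unblocked test. Their median log2 fold change was -0.27 and 22 were negative, against 48.3% of all tested genes. Their summed level overlapped, at 2209 to 2535 CPM in VM iAst and 2441 to 3534 CPM in Control iAst. The unblocked test gave its smallest adjusted p of 0.13 to P4HB, a subunit of prolyl hydroxylase, at 282, 238 and 310 CPM in VM iAst and 479, 332 and 497 CPM in Control iAst. With the replicate block 7 were lower and none higher, where 4.5% of all tested genes were lower. Among the 7 was SERPINH1, the collagen chaperone HSP47, at 265, 223 and 313 CPM in VM iAst and 498, 250 and 513 CPM in Control iAst (edgeR adjusted p = 0.017 with the replicate block).

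Of 20 tested genes of procollagen processing and fibril assembly, 3 fell and none rose, with a median of -0.13, where 1.09% of all tested genes fell. LOX, which crosslinks collagen, averaged 29.2 ± 7.62 CPM in VM iAst and 93.5 ± 12.4 CPM in Control iAst (SD, n = 3; edgeR adjusted p = 0.0037). BGN, a fibril-binding proteoglycan, averaged 10.4 and 39.5 CPM and LOXL1 98.4 and 161 CPM in VM iAst and Control iAst. PCOLCE, the enhancer of procollagen cleavage, averaged 13.5 and 26 CPM in VM iAst and Control iAst (edgeR adjusted p = 0.076, or 0.0043 under the replicate block).

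Among 10 tested collagen receptors 1 rose and none fell, and with the replicate block 1 was higher and 1 lower. Of all tested genes 1.06% rose, and with the block 3.63% were higher and 4.5% lower. The receptor that rose was ADGRG1, an adhesion receptor that binds type III collagen in the developing cortex. It averaged 86.6 ± 22.3 CPM in VM iAst and 35.9 ± 8.96 CPM in Control iAst (SD, n = 3; edgeR adjusted p = 0.023), while the gene of its ligand, COL3A1, fell. CD44, lower with the block, averaged 608 and 909 CPM in VM iAst and Control iAst (edgeR adjusted p = 0.37, or 0.0045 under the replicate block). The median over the receptors was 0.22. None of 8 tested genes of collagen breakdown and its inhibition passed, with a median of -0.28, and with the replicate block 2 were higher and 1 lower. The list includes the protease inhibitors TIMP1, TIMP2 and TIMP3, so its median does not stand for breakdown alone. TIMP3 averaged 802 and 316 CPM and TIMP1 303 and 538 CPM in VM iAst and Control iAst (edgeR adjusted p = 0.056 and 0.053), opposite in direction and both past the test with the replicate block. MMP14, a membrane-bound collagenase, averaged 395 and 291 CPM in VM iAst and Control iAst (edgeR adjusted p = 0.48, or 0.049 under the replicate block).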

How the data were processed

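Salmon (version not listed), DESeq2 1.27.12 and GRCh38.p13 are the authors' tools and build, per the submitters' processing notes. For each transcript the authors deposited an estimated count, a TPM value and lengths. A further deposited table gives normalized signal per gene, with its scaling not stated in the sources used here. Estimated counts were summed per gene with GENCODE release 29 (GRCh38), matching 205225 of 226608 transcripts (90.6%), and unmatched ones held 0.992% to 1.12% of a library's reads. Gene sums were rounded and passed through filterByExpr and TMM scaling. The robust quasi-likelihood test of edgeR 4.0.16 (R 4.3.3) compared VM iAst against Control iAst over all 15984 genes with Benjamini-Hochberg adjustment. An SE is the size of the log2 fold change over the root of its F statistic, and CPM use TMM-scaled library sizes. The method was tested on simulated data.

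Same-numbered libraries deviated together: deviations from group means correlated at 0.234, 0.345 and 0.204 between same numbers, while differently numbered pairs reached at most 0.0237. Taking deviations from group means pushes the other pairs down when same numbers correlate, so their low values are no separate evidence of pairing. The pairing comes from these data alone, since no label says what a number shares, so the block is an alternative and its values are given where it changes the call of a collagen gene, with counts for the other lists. The settings varied were scaling (RLE, upper quartile), the filter (none, or 2 CPM in 3 libraries), the tool (DESeq2 1.42.0, limma 3.58.1 voom), a gene-length offset, the deposited signal on log2(value + 1), coding transcripts alone, the threshold and the libraries, each left out in turn. Collagen genes and gene lists were chosen with earlier results of these data known. Values are given for collagens called with or without the block, with a mean of at least 10 CPM, or of types I, III, IV and V. Of other lists, genes past the test and up to 4 with the smallest p are eligible, and SERPINH1, THY1, VIM, SOX9, GJA1, STMN2, GFAP, ALDH1L1, SLC1A2 and POU5F1 were chosen after their values were seen. Promoter sequences are from RefSeq (GRCh38.p14), which lists 32 of the 44 symbols. Overlapping genes and paralogs are uncertain. Figures used matplotlib 3.10.9.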

Additional observations from a re-analysis of the deposited data

How the results depend on the processing

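The 4 collagen calls (1 higher, 3 lower) and the 344 calls over all genes changed by less than 1.5 times with RLE or upper-quartile scaling and the 2 CPM filter. With the replicate block 15 collagens passed (4 higher, 11 lower) and 1300 genes, and with no low-count filter 15 (4 and 11) and 1012. The 2 fits shared 13 of these collagens. Beside the genes named in the report, the block changed no other call among the collagens. DESeq2 called 10 (2 and 8) and 747 genes. The gene-length offset called 2 collagens (0 higher) and 173 genes, and the deposited signal 2 (0 higher) and 182. Coding transcripts alone gave 1 collagen (0 higher, 1 lower) and 237 genes, with COL9A3 no longer testable. A threshold of 0.01 left 2 (0 higher) and 102 genes. With 1 library left out, 2 to 4 collagens passed (0 higher, 2 to 4 lower), and 131 to 258 genes. In those fits the VM iAst minus Control iAst difference of log2 summed CPM ran between -1.32 and -1.01 for fibrillar and 0.38 and 0.53 for type IV genes, and their log2 ratio between 1.44 and 1.79. For the other collagens it ran from -0.042 to 0.39, negative without Control iAst replicate 3. Leaving out type VI genes and COL14A1, an alternative chosen after seeing the data, gave -0.87.

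Fold changes that changed sign were small and past no test. COL4A5 was at -0.086 with the offset and -0.085 with the deposited signal, and COL18A1 at -0.0093 and -0.012. COL7A1 was at 0.032 with voom, 0.044 with the deposited signal and 0.0099 with the replicate block. With 1 library left out, COL7A1 ran from -0.34 to 0.16, COL6A2 from -0.30 to 0.19, COL14A1 from -0.0089 to 0.35 and COL22A1 from -0.74 to 0.046. COL3A1 was not called with the offset, the deposited signal or coding transcripts alone (adjusted p = 0.55, 0.60 and 0.069), nor COL27A1 with the first 2 (0.25 and 0.21), and the cause of these differences in calls and counts was not tested. At this depth no difference was detectable for COL4A3, COL4A4, COL6A5, COL6A6, COL10A1, COL13A1, COL19A1 and COL20A1, which had few reads or none.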
